A study of Homo sapiens with 5 samples.

Results

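The HOX cluster genes were taken as every gene of the count table whose symbol begins with HOXA, HOXB, HOXC or HOXD, antisense transcripts included. This rule used no measured value and found 41 of the 16677 genes in the table. They are 30 of the 39 HOX protein genes annotated in GENCODE release 29 and 11 antisense transcripts, which are RNAs read from the opposite strand of a cluster. RNA of HEK293 was sequenced in 5 libraries; this cell line was made from human embryonic kidney and was grown here without any named stimulus. The 2 libraries labelled Control have the genotype WT. The 3 libraries labelled rs11607019 carry the T-to-C change of that single-base variant, which the series places in the mitochondrial deacetylase gene SIRT3. The labels do not say whether libraries of a group came from separate clones or cultures, so p-values measure the spread between these libraries, which may be technical.

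HOX genes encode homeodomain transcription factors that give cells their position along the head-to-tail axis of the embryo. They lie in 4 clusters on different chromosomes, and genes at matching places in the clusters form numbered paralogue groups, from group 1 at the anterior end to group 13 at the posterior end. In the embryo they switch on in that order. Polycomb complexes keep HOX chromatin silent, Trithorax complexes keep it active, and the proteins bind DNA together with PBX and MEIS cofactors. In kidney development the group 11 genes are required for the kidney to form, and several HOX genes stay on in the adult organ.

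HEK293 libraries held HOX RNA from all 4 clusters and from nearly the whole anterior to posterior range. HOXA, on chromosome 7, had a value for all 11 of its protein genes and for 4 antisense transcripts. HOXB, on chromosome 17, had 9 of 10 protein genes and 4 antisense transcripts. HOXC, on chromosome 12, had 7 of 9 protein genes and 2 antisense transcripts. HOXD, on chromosome 2, had 3 of 9 protein genes (HOXD3, HOXD4 and HOXD8) and 1 antisense transcript. HOXB1, HOXC5, HOXC12, HOXD1, HOXD9, HOXD10, HOXD11, HOXD12 and HOXD13 were not analysed here. The measured members of HOXB, HOXC and HOXD span bases 48540894 to 48729178 of chromosome 17, 53938765 to 54056030 of chromosome 12 and 176121611 to 176173102 of chromosome 2 in GENCODE 29 coordinates on hg38. No entry of the table was below 3 counts, so genes with fewer reads in any library are not among the values, and a list of genes with values is not a full list of genes that are on or off.

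Levels between genes were compared per length, as RPKM (reads scaled to exon length and to library size), with the mean and SD over all 5 libraries (n = 5). HOXB9 stood highest, at 56.6 ± 8.11 RPKM. The next were HOXB2 at 33.3 ± 5.89, HOXA5 at 28.6 ± 11.04 and HOXA10 at 23.8 ± 4.72 RPKM. The lowest were HOXA2 at 3.18 ± 1.55, HOXC11 at 2.21 ± 0.245 and HOXA7 at 1.78 ± 0.252 RPKM. The antisense transcript HOXA-AS3 covers 62.5% of the exon bases of HOXA7, and another gene covers 62.2% of HOXD3 and 80.5% of HOXD4. How reads from shared bases were counted is not given, so the levels and ranks of such genes may depend on it. In the order of all 30 protein genes, only the steps from HOXB9 to HOXB2 and from HOXC11 to HOXA7 were larger than the larger SD of the genes on either side. By this measure the other neighbours in the order did not differ beyond their spread. The measure does not pair genes within a library. HOXA3 stood above HOXD3 in each of the 5 libraries, and HOXC11 stood below HOXA7 in Control 1 (2.05 against 2.22 RPKM).

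**Figure D1:**
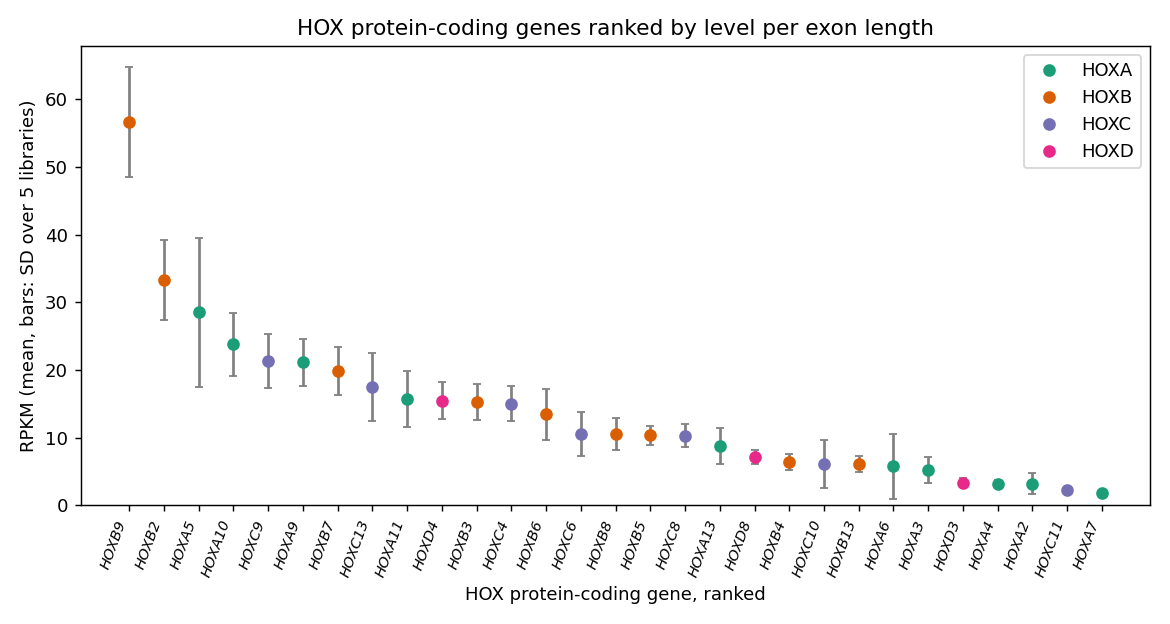
Mean RPKM of 29 HOX protein genes over all 5 libraries (points, coloured by cluster; bars are the SD), ranked from highest to lowest on a linear axis. HOXB9 at 56.6 RPKM stands apart from HOXB2 at 33.3, and below it only the last step, from HOXC11 at 2.21 to HOXA7 at 1.78, exceeds the larger SD of both genes. HOXA-AS3 covers 62.5% of the exon bases of HOXA7, so this last step may depend on how reads there were counted.

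By position, the posterior range had the highest sum, and HOXB9 alone was 56.6 of its 179 ± 30.9 RPKM. Other posterior genes were low, such as HOXB13 at 6.10 and HOXC11 at 2.21 RPKM. The sum was 118 ± 20.0 RPKM in groups 5 to 8 and 106 ± 10.7 RPKM in groups 1 to 4. Paralogue groups 9 to 13 held 44.4% of the summed RPKM of the HOX protein genes, groups 5 to 8 held 29.3% and groups 1 to 4 held 26.3%, with 10 measured genes in each range. Group 9 (HOXA9, HOXB9 and HOXC9) had the highest sum, 99.1 ± 14.5 RPKM, and was at least 81.8 RPKM in every library. Group 4, with 40.07 ± 5.02 RPKM over 4 genes, and group 5, with 38.9 ± 11.4 RPKM over 2 genes, came next and did not differ beyond their spread. By cluster, HOXB held 42.5% of the protein-gene RPKM, HOXA 30.5%, HOXC 20.6% and HOXD 6.44%.

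The groups were compared with edgeR's quasi-likelihood test, fitted over all 16310 genes that passed a filter on low counts. Every one of the 41 members passed that filter. Levels below are CPM, counts scaled to library size with the TMM factors, and a log2 fold change below 0 means less RNA in rs11607019 than in Control. At an adjusted p under 0.05 edgeR called 0 members and 0 genes of the whole table (0.00%), and the lowest adjusted p of a member was 0.616. DESeq2 called 31 genes (0.210% of 14737) and 0 members, and limma-voom called 0 of either. At an unadjusted p under 0.05, 7 members passed in edgeR, against 7.62% of all genes. All 7 were lower in rs11607019 (3.51% of all genes were lower at that threshold and 4.11% higher), and 7 members passed it in DESeq2 (7.26% of all genes) and 7 in limma-voom (7.24%). In simulated counts for this comparison edgeR recovered 18% of genes changed 1.5-fold and 48% of those changed 2-fold.

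As a description, 34 of the 41 members (82.9%) had a log2 fold change below 0, against 49.5% of all tested genes. The members' median was −0.31, and the median of all tested genes was 0.003. In 16 members both Control libraries stood above all 3 rs11607019 libraries, which held for 13.0% of all genes. That count was 15 with RLE or DESeq2 scaling, where HOXB7 overlapped, and 13 with upper-quartile scaling, where HOXB7, HOXA11 and HOXC-AS2 did. In 0 members did the groups separate the other way, which held for 11.8% of all genes. Members of a cluster share chromatin, and some share exon bases, so these counts are not independent observations. In bulk RNA, fewer cells with a transcript and less of it per cell cannot be told apart.

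GC content moved with the log2 fold change over the whole table and is given beside these counts for that reason. Across 10854 genes with a mean log2 CPM above 3, Spearman's rho between GC content and the log2 fold change was 0.40, with genes of high GC content higher in rs11607019. By library, rho with a gene's deviation from its mean log2 CPM was −0.53 in Control 1 and 0.07 in Control 2. It was −0.12 in rs11607019 1, 0.24 in rs11607019 2 and 0.47 in rs11607019 3, so the groups overlapped in it. The members' median GC content was 55.0%, above the 48.6% of all genes, and the members lay lower in rs11607019. With each library corrected for GC content and length, 31 members lay below 0 with a median of −0.26. Without the correction 34 members lay below 0 with a median of −0.31. The part of GC content in these levels was not tested.

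The counts and medians are given by cluster. All 9 HOXC members lay below 0, and their median was −0.41 on the log2 scale. HOXB had 12 of 13 below 0 with a median of −0.34. HOXA had 11 of 15 below 0 with a median of −0.19, and HOXD had 2 of 4 with a median of −0.09. Of the 7 members at an unadjusted p under 0.05, 4 were HOXC, 3 were HOXB, and none was HOXA or HOXD. A difference between clusters was not tested.

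**Figure D2:**
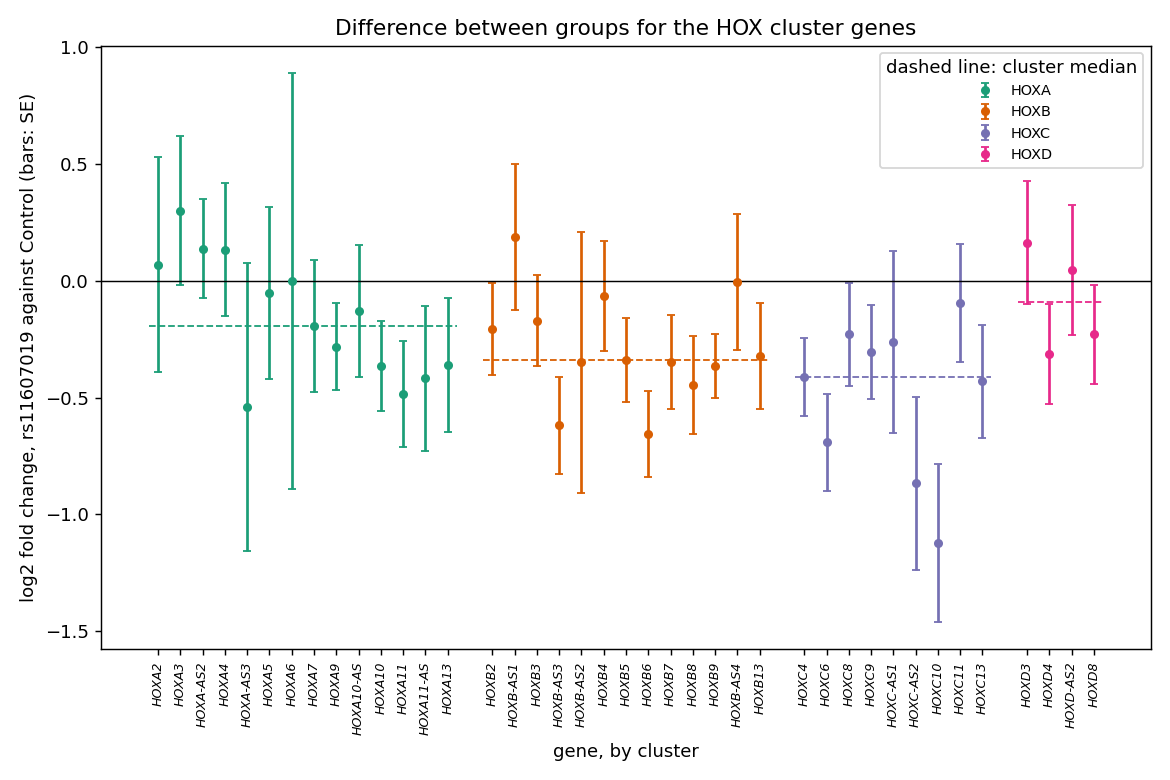
Log2 fold change of rs11607019 against Control for 40 HOX members (points; bars are the SE of the fit), by cluster and in order from the anterior toward the posterior end, with the median over all members of a cluster as a dashed line. All 9 HOXC points lie below 0, 12 of 13 HOXB points lie below 0 and spread from −0.66 to 0.19, and the widest bars belong to HOXA6 and HOXA-AS3.

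Summed over its 13 members, HOXB stood at 570.0 and 607 CPM in Control 1 and Control 2 and at 508, 434 and 485 CPM in rs11607019 1, rs11607019 2 and rs11607019 3. The groups did not overlap, and the ratio of the means was 0.808. HOXC stood at 225 and 275 CPM in the Control libraries and at 173, 164 and 203 CPM in the rs11607019 libraries. Again the groups did not overlap, with a ratio of 0.72. HOXA stood at 435 and 434 CPM in Control and at 480.1, 289 and 330 CPM in rs11607019. Here the groups overlapped, because rs11607019 1 was the highest of the 5 libraries and rs11607019 2 the lowest. HOXD stood at 77.1 and 81.8 CPM in Control and at 87.2, 74.2 and 59.0 CPM in rs11607019, and the groups overlapped.

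**Figure D3:**
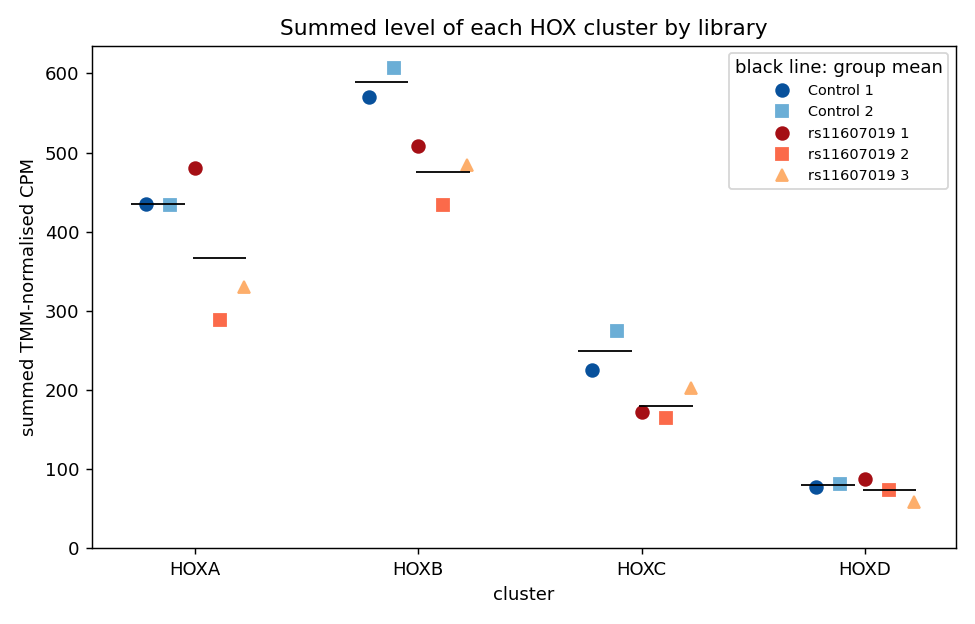
Summed TMM-normalised CPM of the members of each HOX cluster in each library, on a linear axis from 0 (points; black lines are group means of 2 Control and 3 rs11607019 libraries). In HOXB and HOXC every rs11607019 library lies below both Control libraries, and in HOXA the library rs11607019 1, at 480.1 CPM, lies above all others.

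Single libraries decided several of these values. Without rs11607019 1 the HOXA median was −0.54, and without Control 2 the HOXC median was −0.16. Without rs11607019 2 the HOXB median was −0.22. The HOXD median was 0.03 without rs11607019 3, −0.27 without rs11607019 1 and −0.21 without Control 1. The number of members at an unadjusted p under 0.05 also moved with the library left out, and so did that number over all tested genes.

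In HOXB, 3 members had an unadjusted p under 0.05. HOXB9, the most abundant HOX gene per length and a posterior gene linked to the thoracic skeleton, stood at 166 and 171 CPM in Control and at 133, 126 and 135 CPM in rs11607019. The groups did not overlap and each was tight, and the log2 fold change was −0.36 (SE 0.136, unadjusted p = 0.0245, adjusted p = 0.616 in edgeR). HOXB6, a trunk gene in the middle of the cluster, stood at 39.3 and 50.4 CPM in Control and at 30.3, 29.3 and 25.7 CPM in rs11607019. All 3 rs11607019 libraries were below both Control libraries, with a log2 fold change of −0.66 (SE 0.186, unadjusted p = 0.00583, adjusted p = 0.616). HOXB-AS3, a long noncoding RNA that runs against HOXB5 and HOXB6, stood at 25.9 and 25.4 CPM in Control and at 20.2, 15.2 and 14.7 CPM in rs11607019. Again the groups did not overlap, with a log2 fold change of −0.62 (SE 0.207, unadjusted p = 0.0144, adjusted p = 0.616).

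HOXB-AS3 shares 425 exon bases with HOXB6 and 73 with HOXB5 on opposite strands, and 16.6% of the exon bases of HOXB6 are shared with HOXB3 on the same strand. The kit marked strand, but whether the counting used strand is not given in the sources used here, so reads from the shared bases cannot be assigned between these genes with certainty. HOXB5 stood at 25.0 and 23.2 CPM in Control and at 19.4, 18.0 and 19.7 CPM in rs11607019, with no overlap between groups (log2 fold change −0.34, unadjusted p = 0.0924). HOXB7 and HOXB8, with log2 fold changes of −0.35 and −0.45, share no exon bases with an annotated gene. The groups of HOXB8 did not overlap. HOXB7 stood at 33.05 and 36.6 CPM in Control and at 23.8, 25.3 and 32.98 CPM in rs11607019, so its groups were separated only by the gap between 32.98 and 33.05 CPM. With RLE, upper-quartile or DESeq2 scaling the groups of HOXB7 overlapped, and 3 rather than 4 of the HOXB genes of groups 5 to 8 had groups that did not.

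The most abundant anterior HOXB genes had overlapping groups. HOXB3, the HOX gene with the second highest CPM and a gene of the hindbrain and pharyngeal arches, stood at 127 and 116 CPM in Control and at 137, 93.0 and 94.5 CPM in rs11607019. The groups overlapped because rs11607019 1 was the highest library. HOXB2, which acts with HOXB1 in hindbrain patterning, stood at 72.0 and 97.2 CPM in Control and at 72.0, 62.1 and 85.9 CPM in rs11607019, and the groups overlapped. Its antisense neighbour HOXB-AS1, which shares 374 exon bases with HOXB3 and 87 with HOXB2, stood at 3.38 and 3.48 CPM in Control and at 3.35, 3.39 and 4.97 CPM in rs11607019. Only rs11607019 3 stood out there, and HOXB-AS1 was the only HOXB member above 0 (0.19). The remaining members HOXB-AS2, HOXB4, HOXB-AS4 and HOXB13 had log2 fold changes between −0.35 (HOXB-AS2) and −0.00489 (HOXB-AS4), all with overlapping groups.

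HOXC held the member with the largest difference. HOXC10, a lumbar patterning gene, stood at 28.3 and 14.1 CPM in Control and at 6.53, 12 and 10.7 CPM in rs11607019. Every rs11607019 library was below both Control libraries, but Control 1 lay far above Control 2. Its log2 fold change was −1.12 (SE 0.338, unadjusted p = 0.00838, adjusted p = 0.616) and −0.54 without Control 1. Only 1.74% of genes of similar level (a mean CPM within 2-fold of its own) had a range over the 5 libraries as wide as the 4.34-fold range of HOXC10.

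HOXC6 and HOXC4, anterior genes of the cluster, overlap on the same strand. Other genes on that strand cover 15.7% of the exon bases of HOXC6 and 17.8% of those of HOXC4, and reads there could be assigned to either or dropped. HOXC6 stood at 42.4 and 54.6 CPM in Control and at 24.7, 29.7 and 35.6 CPM in rs11607019, with no overlap (log2 fold change −0.69, SE 0.208, unadjusted p = 0.00812, adjusted p = 0.616). HOXC4 stood at 44.2 and 52.0 CPM in Control and at 36.6, 35.4 and 36.4 CPM in rs11607019, a tight group below both Control libraries (log2 fold change −0.41, SE 0.165, unadjusted p = 0.0328, adjusted p = 0.627).

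HOXC9, which sets thoracic identity in motor neurons, stood at 34.4 and 46.5 CPM in Control and at 31.7, 29 and 37.3 CPM in rs11607019, and the groups overlapped. Its antisense neighbour HOXC-AS2 shares 163 exon bases with HOXC9 and 73 with HOXC6. HOXC-AS2 stood at 4.60 and 7.13 CPM in Control and at 2.14, 2.93 and 4.57 CPM in rs11607019. Its groups were separated only by the gap between 4.57 and 4.60 CPM, with a log2 fold change of −0.87 (SE 0.371, unadjusted p = 0.0428, adjusted p = 0.641). HOXC13, a gene of hair and nail, stood at 38.0 and 62.5 CPM in Control and at 41.9, 29.7 and 40.3 CPM in rs11607019. Control 2 alone stood high there. HOXC8, HOXC11 and HOXC-AS1 had log2 fold changes of −0.23, −0.09 and −0.26 with overlapping groups.

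HOTAIR is a long noncoding RNA read from the HOXC cluster against its genes, and is known for binding Polycomb complexes. Its symbol keeps it outside the 41 members. It stood at 17.4 and 28.5 CPM in Control and at 11.9, 9.53 and 10.8 CPM in rs11607019. All 3 rs11607019 libraries were below both Control libraries (log2 fold change −1.09, SE 0.249, unadjusted p = 0.00155, adjusted p = 0.616). HOTAIRM1, a noncoding RNA of the HOXA cluster, stood at 25.1 and 23.6 CPM in Control and at 11.6, 19.7 and 19.1 CPM in rs11607019. Its groups did not overlap (log2 fold change −0.53, unadjusted p = 0.0588), and rs11607019 1 was lowest. HOTTIP, HAGLR, HAGLROS, EVX1, EVX2, PRAC1 and PRAC2 were not analysed here.

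**Figure D4:**
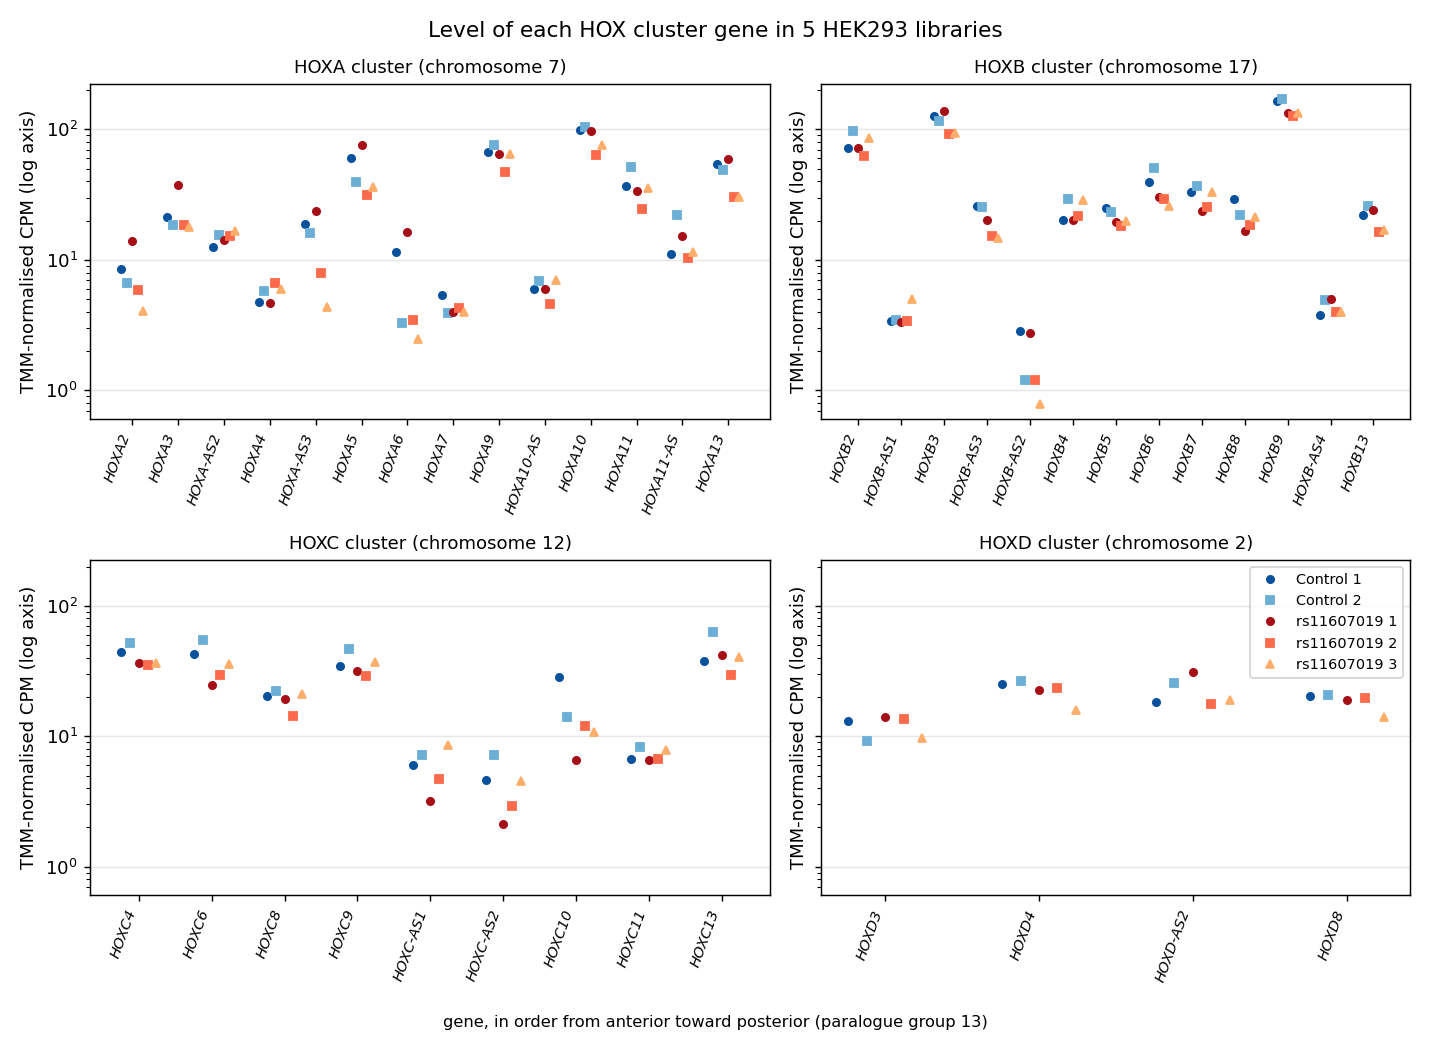
TMM-normalised CPM of 40 HOX members in each of the 5 libraries on a log axis, 1 panel per cluster, genes in order from the anterior toward the posterior end. In HOXA6 the libraries rs11607019 1 (16.2 CPM) and Control 1 (11.5 CPM) stand far above the other libraries, while HOXB9 lies close together in each group.

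In several HOXA genes the libraries of a group differed more than the groups did. HOXA6, a trunk gene with 44 to 281 counts per library, stood at 11.5 and 3.31 CPM in Control and at 16.2, 3.44 and 2.49 CPM in rs11607019. Control 1 and rs11607019 1 were high and the others low, in both groups alike, and the log2 fold change was −0.001 with an SE of 0.889. The range was 6.53-fold, and 1.31% of genes of similar level had a range as wide. HOXA-AS3, a noncoding RNA, shares exon bases on the other strand with HOXA6 (505), HOXA7 (1507), HOXA3 (288) and HOXA4 (31). It stood at 18.7 and 16.0 CPM in Control and at 23.6, 7.86 and 4.35 CPM in rs11607019. The library rs11607019 1 was highest and rs11607019 3 lowest, and the groups overlapped (log2 fold change −0.54, SE 0.617). HOXA5, a gene of lung and thoracic development, stood at 60.2 and 39.5 CPM in Control and at 76.2, 31.6 and 36.2 CPM in rs11607019. Again rs11607019 1 and Control 1 led and the groups overlapped.

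HOXA3, a gene of the pharyngeal arches and thymus, stood at 21.4 and 18.5 CPM in Control and at 37.4, 18.5 and 17.8 CPM in rs11607019. Only rs11607019 1 stood out. HOXA2, a hindbrain gene, stood at 8.57 and 6.62 CPM in Control and at 14.0, 5.86 and 4.07 CPM in rs11607019, and HOXA13, a distal limb and genital tract gene, at 54.0, 48.5, 59.4, 30.2 and 30.2 CPM in the same order of libraries. In both, rs11607019 1 was highest and Control 1 next. This order was noticed after the values were seen. It held in 6 of 15 HOXA members (HOXA2, HOXA3, HOXA-AS3, HOXA5, HOXA6 and HOXA13), 1 of 13 HOXB members (HOXB3) and 0 of the 13 HOXC and HOXD members, and in 5.95% of all tested genes. HOXA-AS3 shares exon bases with HOXA3 and HOXA6, so the orders of these genes may rest partly on the same reads if the counting ignored strand.

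**Figure D5:**
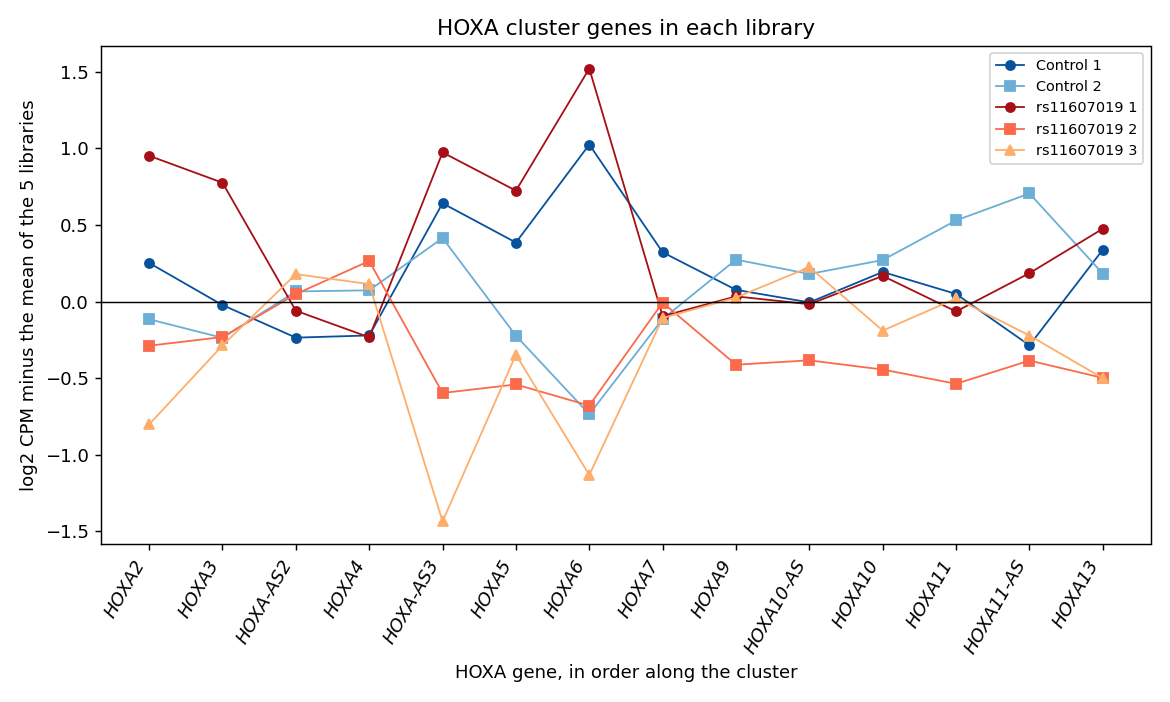
Log2 CPM of 14 HOXA members minus its mean over the 5 libraries (lines join genes in order along the cluster). The libraries rs11607019 1 and Control 1 stand high together at HOXA6, to 1.52 and 1.02, and from HOXA9 to HOXA11 the library rs11607019 2 lies lowest.

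Members between and beside those 6 had other orders. HOXA7, a trunk gene next to HOXA6, stood at 5.36 and 3.94 CPM in Control and at 3.99, 4.25 and 3.95 CPM in rs11607019. Its range was only 1.36-fold, although HOXA-AS3 covers 62.5% of its exon bases. HOXA4, which shares 254 exon bases with HOXA-AS2, stood at 4.72 and 5.82 CPM in Control and at 4.68, 6.66 and 5.99 CPM in rs11607019. HOXA-AS2 itself stood at 12.5 and 15.4 CPM in Control and at 14.1, 15.2 and 16.7 CPM in rs11607019. In neither did rs11607019 1 stand high.

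Upstream windows of 6 HOXA genes are printed to set the start sites of 4 genes that differed by library beside those of 2 even neighbours, HOXA4 and HOXA7. Each is the 250 bases before the RefSeq start of the gene, 5′ to 3′ on the gene's own strand, on GRCh38.p14, with CG pairs (CpG, the site of DNA methylation) in capitals. The window of HOXA2 lies at chr7:27102684-27102933 (reverse strand), HOXA4 at chr7:27130758-27131007 (reverse), HOXA6 at chr7:27147775-27148024 (reverse), HOXA-AS3 at chr7:27146913-27147162 (forward), HOXA7 at chr7:27156676-27156925 (reverse) and HOXA13 at chr7:27200092-27200341 (reverse).
HOXA2: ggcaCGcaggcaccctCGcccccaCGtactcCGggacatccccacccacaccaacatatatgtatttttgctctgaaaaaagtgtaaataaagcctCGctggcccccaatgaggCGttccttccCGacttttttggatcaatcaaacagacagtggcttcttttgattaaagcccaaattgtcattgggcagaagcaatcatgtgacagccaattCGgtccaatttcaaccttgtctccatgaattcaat
HOXA4: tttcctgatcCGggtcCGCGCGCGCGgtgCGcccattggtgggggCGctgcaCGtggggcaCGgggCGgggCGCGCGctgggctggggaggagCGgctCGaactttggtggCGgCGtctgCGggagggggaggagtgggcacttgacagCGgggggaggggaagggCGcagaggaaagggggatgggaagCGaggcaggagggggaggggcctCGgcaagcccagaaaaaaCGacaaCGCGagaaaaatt
HOXA6: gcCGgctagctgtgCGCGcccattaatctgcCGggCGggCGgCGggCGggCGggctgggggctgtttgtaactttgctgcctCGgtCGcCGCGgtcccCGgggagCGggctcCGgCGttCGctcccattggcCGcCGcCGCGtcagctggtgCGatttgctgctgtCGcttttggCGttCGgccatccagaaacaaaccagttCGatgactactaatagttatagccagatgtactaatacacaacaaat
HOXA-AS3: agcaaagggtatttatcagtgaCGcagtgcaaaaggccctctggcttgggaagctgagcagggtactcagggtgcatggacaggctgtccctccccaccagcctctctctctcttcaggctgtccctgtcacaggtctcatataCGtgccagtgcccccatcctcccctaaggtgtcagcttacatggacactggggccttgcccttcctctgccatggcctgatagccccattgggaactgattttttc
HOXA7: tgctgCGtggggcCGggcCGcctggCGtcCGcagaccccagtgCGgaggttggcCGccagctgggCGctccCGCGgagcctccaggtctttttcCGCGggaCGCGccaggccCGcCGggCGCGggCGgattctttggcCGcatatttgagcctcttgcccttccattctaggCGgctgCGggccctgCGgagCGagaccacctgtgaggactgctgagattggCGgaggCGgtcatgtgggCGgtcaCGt
HOXA13: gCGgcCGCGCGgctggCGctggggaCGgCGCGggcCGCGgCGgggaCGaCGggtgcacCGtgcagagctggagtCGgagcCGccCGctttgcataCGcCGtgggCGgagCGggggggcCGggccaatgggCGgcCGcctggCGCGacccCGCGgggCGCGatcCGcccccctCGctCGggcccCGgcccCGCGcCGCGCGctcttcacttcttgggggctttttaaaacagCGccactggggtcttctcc

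These windows differ widely in CpG content. HOXA-AS3 holds 2 CpG and HOXA2 holds 8, both under the median of 11 over 35116 RefSeq windows of this length. HOXA4 holds 26, HOXA6 holds 27, HOXA7 holds 28 and HOXA13 holds 40, the last more than 97.8% of windows. Of the genes with these CpG-rich windows, HOXA6 and HOXA13 followed the library order and HOXA4 and HOXA7 did not. HOXA3, which also followed it, has windows that are not printed here, with 0 to 26 CpG. The part of CpG content in the library order was not tested. The motif TGATNNAT, bound by HOX proteins with a PBX partner, was searched on both strands. It lies in the HOXA2 window, starting at base 137, and in the HOXA-AS3 window, starting at base 11, both on the reverse strand of the gene. It was found in 2 of the 29 windows of the 21 HOX members that matched, and in 6.47% of all windows. HOXA3 has several of those windows, no HOXB protein gene has one, and HOXC4 is the only HOXC member with one. The shares therefore do not describe HOX promoters as a whole. The CDX and posterior HOX motif TTTATNG was in 8 of those 29 windows and 8.93% of all, the TATA box TATAAA in 5 and 10.7%, and the nuclear receptor element AGGTCA in 0 and 12.1%. None of these was in the 6 printed windows. A match is a description of the letters and not of binding.

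HOXA9, HOXA10 and HOXA11, posterior genes of the cluster, were more abundant and did not follow that order. HOXA10, a gene of uterus and limb, stood at 99.1 and 105 CPM in Control and at 97.4, 63.7 and 76.0 CPM in rs11607019. The groups did not overlap, although rs11607019 1 lay next to Control 1 (log2 fold change −0.37, SE 0.193, unadjusted p = 0.0879). HOXA9, which is known for its role in blood precursors and leukaemia, stood at 66.7 and 76.5 CPM in Control and at 64.8, 47.5 and 64.4 CPM in rs11607019, also without overlap. HOXA10-AS, which shares 608 exon bases with HOXA10 and 422 with HOXA9, stood at 6.0 and 6.84 CPM in Control and at 5.95, 4.59 and 7.06 CPM in rs11607019, and its groups overlapped. HOXA11, one of the kidney group 11 genes, stood at 36.6 and 51.1 CPM in Control and at 33.8, 24.3 and 35.9 CPM in rs11607019. Its groups did not overlap, with a log2 fold change of −0.48 (SE 0.225, unadjusted p = 0.0583). HOXA11-AS, which shares 717 exon bases with HOXA11, stood at 11 and 22.0 CPM in Control and at 15.3, 10.3 and 11.5 CPM in rs11607019, with Control 2 alone high.

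Summed over measured members, HOXD carried the least RNA, with 3 of its 9 protein genes measured. HOXD4 stood at 25.1 and 26.3 CPM in Control and at 22.8, 23.2 and 16.0 CPM in rs11607019, and HOXD8 at 20.5, 20.8, 19.0, 19.6 and 14.1 CPM in the same order of libraries. In both the groups did not overlap, and rs11607019 3 was the lowest library by some distance. HOXD3 stood at 13.1 and 9.12 CPM in Control and at 14.1, 13.5 and 9.77 CPM in rs11607019, and its groups overlapped. HOXD-AS2, which shares 379 exon bases with HOXD3, stood at 18.4 and 25.6 CPM in Control and at 31.3, 17.8 and 19.1 CPM in rs11607019, with rs11607019 1 high and the groups overlapping. HOXD3 and HOXD4 also share 62.2% and 80.5% of their exon bases with the annotated gene AC009336.2 on the same strand, so their levels depend on how the counting treated it.

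Along the anterior to posterior axis, all 10 protein genes of groups 9 to 13 lay below 0, with a median of −0.36 and a range from −1.12 to −0.09. All 10 of groups 5 to 8 lay below 0 as well, with a median of −0.28. Of these, HOXA5 (−0.05) and HOXA6 (−0.001) were close to 0 and lay above it with the GC and length correction (0.00846 and 0.108), which left 8 of 10 below 0. Without Control 1 it was 7 of 10. Of the 10 genes of groups 1 to 4, 6 lay below 0, with a median of −0.12. The 4 above 0 were HOXA2, HOXA3, HOXA4 and HOXD3, so 3 of them were HOXA genes, and all 3 HOXB genes and the 1 HOXC gene of this range lay below 0. The order of the medians depended on single libraries. Without Control 2 the median was −0.40 in groups 5 to 8 and −0.21 in groups 9 to 13, where 9 of 10 lay below 0. Without rs11607019 2 these medians were −0.30 and −0.23. A difference by position was not tested. Protein genes lay below 0 in 26 of 30 cases and antisense transcripts in 8 of 11, with medians of −0.31 and −0.26.

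The medians of the tested genes nearest to HOXB and HOXC lay close to 0, while single neighbours did not. Many of these genes were distant. On the side of lower coordinates they lay 418 to 474 kb from HOXB and 211 to 312 kb from HOXC, and HNRNPA3 lay 1039 kb from HOXD. Some HOXB neighbours had few counts. SUMO2P17 averaged 1.07 CPM in Control and 1.20 CPM in rs11607019, and an unnamed gene 0.431 and 0.420 CPM. For the 3 nearest tested genes on each side of HOXB the median was 0.01 on the log2 scale, with 3 of 6 below 0, and those of HOXC a median of −0.02, with 4 of 6 below 0. TTLL6, 33.1 kb beyond HOXB, was the only neighbour of any cluster with an unadjusted p under 0.05, with 0.433 CPM on average in Control and 0.914 CPM in rs11607019 (log2 fold change 1.07, adjusted p = 0.65 in edgeR). LINC02381, a noncoding RNA gene 70.1 kb beyond HOXC, stood at 116 and 104 CPM in Control and at 75.1, 93.3 and 95.4 CPM in rs11607019. Its groups did not overlap (log2 fold change −0.32, unadjusted p = 0.0815), and its difference was larger than those of HOXC8, HOXC9, HOXC11 and HOXC-AS1. Around HOXA the median was −0.22, with 5 of 6 below 0, and around HOXD it was −0.23, with 6 of 6. Over all genes of chromosome 17 the median was −0.02, over chromosome 12 it was −0.07, over chromosome 7 it was −0.06 and over chromosome 2 it was −0.14. On chromosome 2 the library rs11607019 3 had a median deviation of −0.24 (log2) from the mean of the libraries, in the same direction as its low HOXD4 and HOXD8, and the part of this in the HOXD values was not tested. As a description, the medians of HOXB and HOXC lay below those of their neighbours and chromosomes.

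The genes that work with or on HOX chromatin were counted by lists. Of the HOX cofactors, 8 of 10 were tested, 5 above 0 and 3 below, with a median of 0.18. PBX2, a DNA-binding partner of HOX proteins, stood at 91.6 and 97.5 CPM in Control and at 129.9, 115 and 120.4 CPM in rs11607019, with no overlap (log2 fold change 0.36, unadjusted p = 0.0353). PBX2 was the most abundant cofactor and the only one with an unadjusted p under 0.05. Of 32 Polycomb genes, 14 lay above 0 and 18 below, with a median of −0.04. JARID2, a subunit that helps bring a Polycomb complex to its sites, stood at 66.6 and 83.1 CPM in Control and at 113, 103 and 107 CPM in rs11607019 (log2 fold change 0.52, SE 0.163, unadjusted p = 0.00965). PHF19, another Polycomb accessory subunit, had a log2 fold change of 0.67 (unadjusted p = 0.0258), and YAF2, of the other Polycomb complex, one of −0.55 (unadjusted p = 0.0190). In JARID2, PHF19 and YAF2 the groups did not overlap, and their GC contents were 50.2%, 57.9% and 39.7%. The most abundant gene of the list, the histone-binding RBBP7, ranged from 649 to 1056 CPM with overlapping groups.

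Of 22 Trithorax and other HOX activating chromatin genes, 17 lay above 0 and 5 below, with a median of 0.14. With each library corrected for GC content and length, 9 lay above 0 and 13 below, with a median of −0.01, so the direction of this list was lost. MLLT1, a transcription elongation factor and fusion partner of KMT2A, had a GC content of 63.4% and a log2 fold change of 0.34 (unadjusted p = 0.0340). DPY30, a core subunit of the KMT2 methyltransferases, had a GC content of 40.0% and a log2 fold change of −0.45 (unadjusted p = 0.0252). The most abundant gene of the list, the methyltransferase KMT2B, had a GC content of 63.5%, non-overlapping groups and a log2 fold change of 0.26 (unadjusted p = 0.0740). Of the retinoic acid, CDX and boundary regulators, 18 of 25 were tested, 9 above 0 and 9 below, with a median of 0.03. The most abundant, the zinc finger factor MAZ, with a GC content of 66.0%, ranged from 255 to 328 CPM with non-overlapping groups (log2 fold change 0.23, unadjusted p = 0.132). ALDH1A2, which makes retinoic acid, the signal that switches on anterior HOX genes, stood at 106 and 122 CPM in Control and at 87.6, 92.4 and 74.2 CPM in rs11607019, with no overlap (log2 fold change −0.43, unadjusted p = 0.0259). No gene of these 4 lists passed the adjusted threshold in edgeR, where 7 of 80 passed the unadjusted one (8.75%, against 7.62% of all genes), 4 above 0 and 3 below. With the GC and length correction, 5 cofactors lay above 0 and 3 below, and 12 Polycomb genes above and 20 below. Of the retinoic acid, CDX and boundary regulators, 11 then lay above 0 and 7 below. The part of GC content in these lists was not tested.

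The libraries held between 17122569 and 17596084 counts each. Of 15 listed HEK293 markers 7 had a value, among them PAX2 and LHX1, genes of the renal precursor, and their sum ran from 723 to 998 CPM in Control and from 838 to 1200.4 CPM in rs11607019. Of 13 markers of other cells a culture could hold, only COL1A1 had a value, at 37.7 CPM on average, from 28.4 to 46.3 CPM in Control and from 28.7 to 45.0 CPM in rs11607019. COL1A1 was lowest in Control 1 and rs11607019 1, the libraries with the highest HOXA6, and its part in the HOXA order was not tested. The other markers were not analysed here.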

How the data were processed

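RNA-seq counts of 2 Control and 3 rs11607019 libraries of HEK293 were analysed. TRIzol extraction, a strand-specific mRNA library and single-end DNBseq reads are given, per the labels' protocols. The deposited values are raw read counts per Ensembl gene, whole numbers with no normalization. HISAT2, SAMtools, HTSeq and hg38 are named, per the submitters' processing notes. The roles, versions, strand setting, gene annotation and gene filter are not given in the sources used here. Each library held between 17122569 and 17596084 counts. With no molecular identifiers, depth speaks to counting error only.

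Of 16677 identifiers, 16627 were named from a gene name table, and GENCODE 29 placed 16565 and gave exon lengths. Counts were filtered with filterByExpr (16310 genes, 97.8%), scaled by TMM and tested with edgeR 4.0.16 in R 4.3.3 (quasi-likelihood F test, robust, group only, two-sided, Benjamini-Hochberg over all tested genes, threshold 0.05). Alternatives were other scalings and filters, DESeq2 1.42.0, limma-voom 3.58.1, the replicate number as a block, each library left out, a correction for GC content and length, and protein genes only. On simulated counts for 16168 genes edgeR made 141 calls, 14 of them false, and with no gene changed it made 5.

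Values per library are given for the 3 most abundant members of each cluster, members with an unadjusted p under 0.05, the 4 with the largest fold change, and antisense transcripts with their partners. HOXA2 and HOXA13 were added after their values were seen. The members and all lists were chosen with earlier results of these data known. Promoter windows came from RefSeq (GRCh38.p14), which matched 21 of 41 members. 1 member is counted in all totals and is not reported singly here.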

Additional observations from a re-analysis of the deposited data

How the results depend on the processing

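With 2 Control libraries, a fit that leaves out a Control library assumes that the lone one varies like rs11607019. No HOX member was called by edgeR, DESeq2 or limma-voom under any alternative run, and 223 of 238 recomputed counts, medians and sums stayed close to those reported. That tally includes counts of called genes that were 0 in the main fit, and scalings and filters close to it. It is therefore not a measure of how firm the values are. DESeq2 called 31 genes of the whole table. Counts of members whose groups do not overlap under other scalings were added after seeing the data. Leaving out each library in turn gave 0 to 4 genes called, 549 to 1618 genes and 3 to 13 HOX members at an unadjusted p under 0.05, and 6 to 11 members above 0. It moved the cluster medians to between −0.54 and −0.15 (HOXA), −0.37 and −0.22 (HOXB), −0.53 and −0.16 (HOXC) and −0.27 and 0.03 (HOXD). The GC and length correction gave a HOXB median of −0.28, and among protein genes only 4 members lay above 0.

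The replicate numbers did not pair the libraries: deviations of same-numbered libraries correlated at 0.12 and −0.11 over 16310 genes. With the replicate number as a block, edgeR called 0 genes, 7 HOX members had an unadjusted p under 0.05 and the members' median was −0.29. Of those 7, 5 were shared with the fit without the block: HOXB9 and HOXC4 dropped out, and HOXB7 and HOXC-AS1 came in. The HOXD median was 0.0147 under the block. Log2 fold changes near 0 turned sign under the block for HOXA5 (0.0151), HOXA6 (0.298), HOXB-AS1 (−0.0254) and HOXB-AS4 (0.0593). They turned under the GC and length correction for HOXA5 (0.00846), HOXA6 (0.108) and HOXB-AS4 (0.116), for HOXA6 with RLE scaling (0.00303) and DESeq2 (0.00328), and for HOXA2 with limma-voom (−0.12).

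Leaving out each library turned the sign of 18 uncalled members, whose log2 fold changes then ran from −0.00731 to 0.30 (HOXA-AS2), −0.28 to 0.0184 (HOXA10-AS), −0.83 to 0.17 (HOXA11-AS), −0.61 to 0.39 (HOXA2), −0.13 to 0.49 (HOXA3), −0.0107 to 0.29 (HOXA4), −0.56 to 0.28 (HOXA5), −1.32 to 1.16 (HOXA6), −0.40 to 0.0455 (HOXA7), −0.0257 to 0.28 (HOXB-AS1), −1.02 to 0.40 (HOXB-AS2), −0.18 to 0.19 (HOXB-AS4), −0.41 to 0.0269 (HOXB2), −0.31 to 0.22 (HOXB4), −0.73 to 0.0114 (HOXC-AS1), −0.24 to 0.0656 (HOXC11), −0.26 to 0.30 (HOXD-AS2) and −0.0744 to 0.45 (HOXD3). For the members with low counts, such as HOXB-AS2 with 14 to 49 counts, depth limits what could be seen.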
